A study of Mus musculus with 12 samples.

Results

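Luminal cells of the mouse mammary gland were compared between ovariectomized (ovx) and control FVB/NJ females, with 2 RNA samples of pooled mice in each group, which are 4 of the 8 RNA samples of the series. The samples were chosen by their titles as luminal ovx and luminal control. Ovx mice lost their ovaries at 8 weeks of age, gave their glands 4 weeks later and were combined 6 to a pool. The control luminal samples came from 2 further pools, made in a like way, and the labels used here give neither their age and number nor a sham operation. Digested glands were freed of cells carrying CD45, CD31 or TER119 and sorted by CD24 and CD29. The luminal fraction (CD29lo CD24+), at a stated purity above 90%, holds both the hormone receptor-positive cells and the luminal progenitors, so it is a mixture. The same 4 pools gave an ovx and a control fraction enriched for mammary stem cells (MaSC-enriched, CD29hi CD24+), with 2 samples each, used to estimate the spread and for the difference of effects. Replicate 1 of each luminal group was measured on an array of each of 2 beadchips and averaged, and replicate 2 on beadchip 2 alone, which makes 6 luminal arrays. All values are background-corrected, quantile-normalized log2 signals of an Illumina beadchip, and values of a gene are given for replicate 1 and then replicate 2.

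The ovary supplies the mammary gland with oestrogen and progesterone. Only a part of the luminal cells carries the receptors for both hormones, and these cells pass the signal on to their neighbours by secreted factors such as RANK ligand and Wnt4. Prolactin, which acts through Stat5, drives the milk protein genes of the alveolar luminal cells, and progesterone and prolactin together prepare the gland for secretion. Loss of the ovaries in mice is known to leave a quiescent gland with few alveolar buds.

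Basal keratins were lower in the luminal than in the MaSC-enriched samples, but not every marker separated the fractions. Krt8, Krt18 and Krt19, the keratins of simple epithelia, lay between 13.82 and 15.05 in all 4 luminal samples. Krt8 lay between 13.76 and 14.69 in MaSC-enriched samples, so for it the fractions overlapped. Krt5, a keratin of basal cells, lay between 5.04 and 6.58 in luminal and between 11.91 and 13.19 in MaSC-enriched samples. Other basal genes were detected on all 6 luminal arrays, with Krt14 between 9.43 and 12.90, Krt17 between 8.53 and 10.80 and the brightest probe of Acta2, smooth muscle actin, between 11.54 and 12.36, and these 3 lay between 14.36 and 14.87 in MaSC-enriched samples. Dimmer Acta2 probes that all 6 luminal arrays detected lay between 7.91 and 9.71 in luminal samples. In MaSC-enriched samples they lay between 14.24 and 14.93. Cd24a, which encodes the sort antigen CD24, lay between 6.98 and 8.25 in luminal and between 5.33 and 7.13 in MaSC-enriched samples, so the fractions overlapped. The leukocyte gene Ptprc, which encodes CD45, was not detected on any luminal array, whereas Pecam1, which encodes CD31, was detected on all 6 and stood at 7.58 and 7.90 in control and 8.60 and 8.69 in ovx samples. Between 17908 and 18853 of 45281 probes were detected on each luminal array, and the detection floor, the smallest log2 signal that counted as detected on an array, lay between 5.74 and 5.89. The only array of control MaSC-enriched replicate 1 detected 12994 probes, with a floor of 7.29. On the other MaSC-enriched arrays between 17705 and 18903 were detected. That array enters the spread of the fit, the MaSC-enriched detection counts and the difference of effects. The ovx samples were more alike (Pearson r = 0.987 over probes, median absolute difference 0.20) than the control samples (r = 0.949, median absolute difference 0.41), while arrays of the same RNA differed by a median of 0.16 and 0.15. Control replicate 2 was the sample that stood apart, with r = 0.911 and 0.922 to the ovx samples against 0.967 and 0.965 for control replicate 1. The correlations are across probes, which are not independent replicates.

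The comparison asks which luminal transcripts depend on the presence of the ovaries. In the limma fit, 33 of 20995 kept probes (0.157%) passed a Benjamini-Hochberg adjusted p of 0.05, of which 14 (0.0667%) were higher in the ovx group and 19 (0.0905%) lower. An unadjusted p under 0.05 was reached by 1511. They stood for 24 named genes, 11 higher and 13 lower, beside 8 probes without a gene symbol. For each of the 33 probes the 2 groups were free of overlap, and the rule for naming genes asked for this. The number of pools limits the precision. With 2 samples against 2, no exact permutation test can go below p = 0.333, so each call rests on the spread that limma shares across probes and over all 4 groups.

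**Figure D1:**
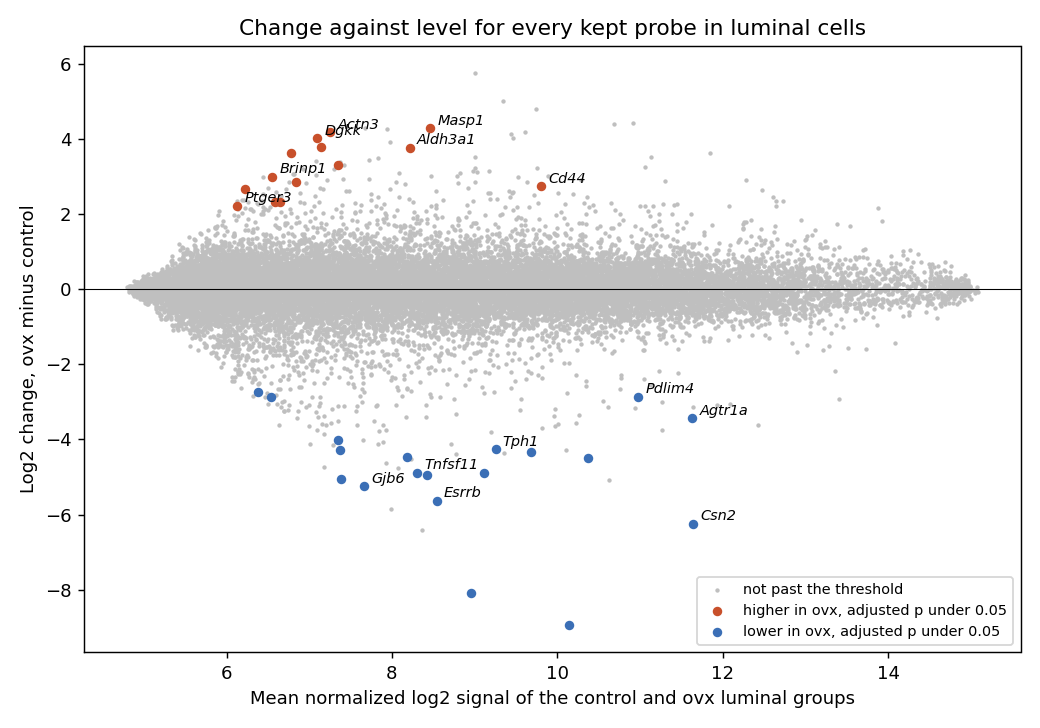
Each point is 1 of 20995 kept probes, placed by its mean log2 signal over the luminal groups (horizontal axis) and its log2 change, ovx minus control (vertical axis), with the 33 called probes in colour and some of them named. The lower calls reach to −8.93, a probe without a symbol, and the higher calls to 4.28 for Masp1.

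Hormone sensing held the named gene with the smallest p. Esrrb, an orphan nuclear receptor of the oestrogen-related receptor family, stood at 11.33 and 11.39 in control and at 5.45 and 6.00 in ovx luminal cells. Its control samples were nearly equal, and of the ovx arrays 1 of 3 detected it. The log2 signal of Esrrb fell by 5.63 (adjusted p = 0.0112, SE 0.371), or 49.6-fold by the fitted means. In MaSC-enriched cells it lay at 5.63 and 6.34 in control against 5.17 and 4.81 in ovx samples, where 2 of 3 control arrays and no ovx array detected it. The fitted difference between the luminal and the MaSC-enriched effect was −4.64 (SE 0.525) and did not pass (adjusted p = 0.113), and the detection floor limits how small the MaSC-enriched values can be.

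The receptors themselves did not pass. Pgr, the progesterone receptor and a known oestrogen target, measured 9.66 and 7.81 in control and 6.32 and 7.06 in ovx cells (−2.04, SE 0.616, adjusted p = 0.454). Both ovx samples were lower than both control samples, but the control samples differed from each other by nearly as much as the groups did. Esr1, the oestrogen receptor alpha gene, measured 11.16 and 10.06 in control and 12.76 and 12.46 in ovx cells (2.00, adjusted p = 0.322), and its second probe stood at 0.63 (adjusted p = 0.809). Among 14 tested hormone receptors and hormone-sensing luminal markers, none was called higher and 1, Esrrb, was called lower, beside 9 higher (0.0797%) and 13 lower (0.115%) of all 11292 genes by their brightest probe. Their median was 0.34 against 0.02 for all genes. In 3 of the 14 genes both ovx samples lay above both control samples and in 2 below, where 27.7% and 24.2% of all genes did so. These shares over all genes, and those of the calls, are the background for the counts of each list below. Without control replicate 2 the median was −0.11. The pioneer factor Foxa1 (0.34) and Gata3 (0.48), which specify luminal cells, had overlapping groups, and Tbx3, a luminal transcription factor, stood at 1.34 with both ovx samples higher.

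Tnfsf11 encodes RANK ligand, through which hormone-sensing luminal cells drive their neighbours. Its signal was 10.41 and 11.09 in control and 5.91 and 5.81 in ovx luminal cells. The groups lay far apart, and 2 of 3 ovx arrays still detected the transcript. Tnfsf11 fell by 4.89 (SE 0.334, adjusted p = 0.0112), or 29.6-fold by the fitted means. In bulk samples, fewer cells that make a transcript and less of it per cell cannot be told apart. Control MaSC-enriched cells measured 6.42 and 6.65 and ovx ones 5.58 and 5.79, and the difference of effects, −4.03, did not pass (adjusted p = 0.113).

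The other components of the RANK pathway held no call. Of 12 tested genes, 1 was called lower (Tnfsf11) and none higher, the median was 0.13, and 5 lay with both ovx samples above and 2 with both below the controls. Over all genes 27.7% lay above and 24.2% below in this way. The receptor gene Tnfrsf11a measured 6.95 and 7.77 in control and 6.96 and 7.23 in ovx cells, so its groups overlapped (−0.27, adjusted p = 0.971). Tnfrsf11b, the decoy receptor osteoprotegerin, was not detected on any luminal array. Map3k14, the kinase of the non-canonical NF-kappaB route, stood at 0.96 and the adaptor gene Traf2 at 1.28, with adjusted p = 0.57 and 0.605. Id2, a helix-loop-helix inhibitor needed for alveolar growth in mice, stood at 0.99 (adjusted p = 0.725). Ccnd1, the cyclin D1 gene, measured 13.66 and 14.17 in control and 14.09 and 14.19 in ovx cells and showed overlapping groups.

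Among 22 tested oestrogen and progesterone target genes, Tnfsf11 was the 1 called lower and none was called higher. The median change was 0.13, and 7 genes lay with both ovx samples above and 5 with both below the controls. Fkbp5, a co-chaperone of steroid receptors that progestins and glucocorticoids induce, measured 9.62 and 10.64 in control and 7.35 and 8.13 in ovx cells (−2.39, adjusted p = 0.157). Both ovx samples were lower than both controls. Rara, the retinoic acid receptor alpha gene, stood at 1.76 (adjusted p = 0.238) in the other direction. Wnt4, which acts downstream of progesterone in mice, measured 11.20 and 10.69 in control and 11.04 and 11.11 in ovx cells, so the groups overlapped (0.13, adjusted p = 0.975). Greb1, an oestrogen target, was not detected on any luminal array. Prlr and Areg could not be matched to a probe by symbol, so whether they were detected is not known.

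**Figure D2:**
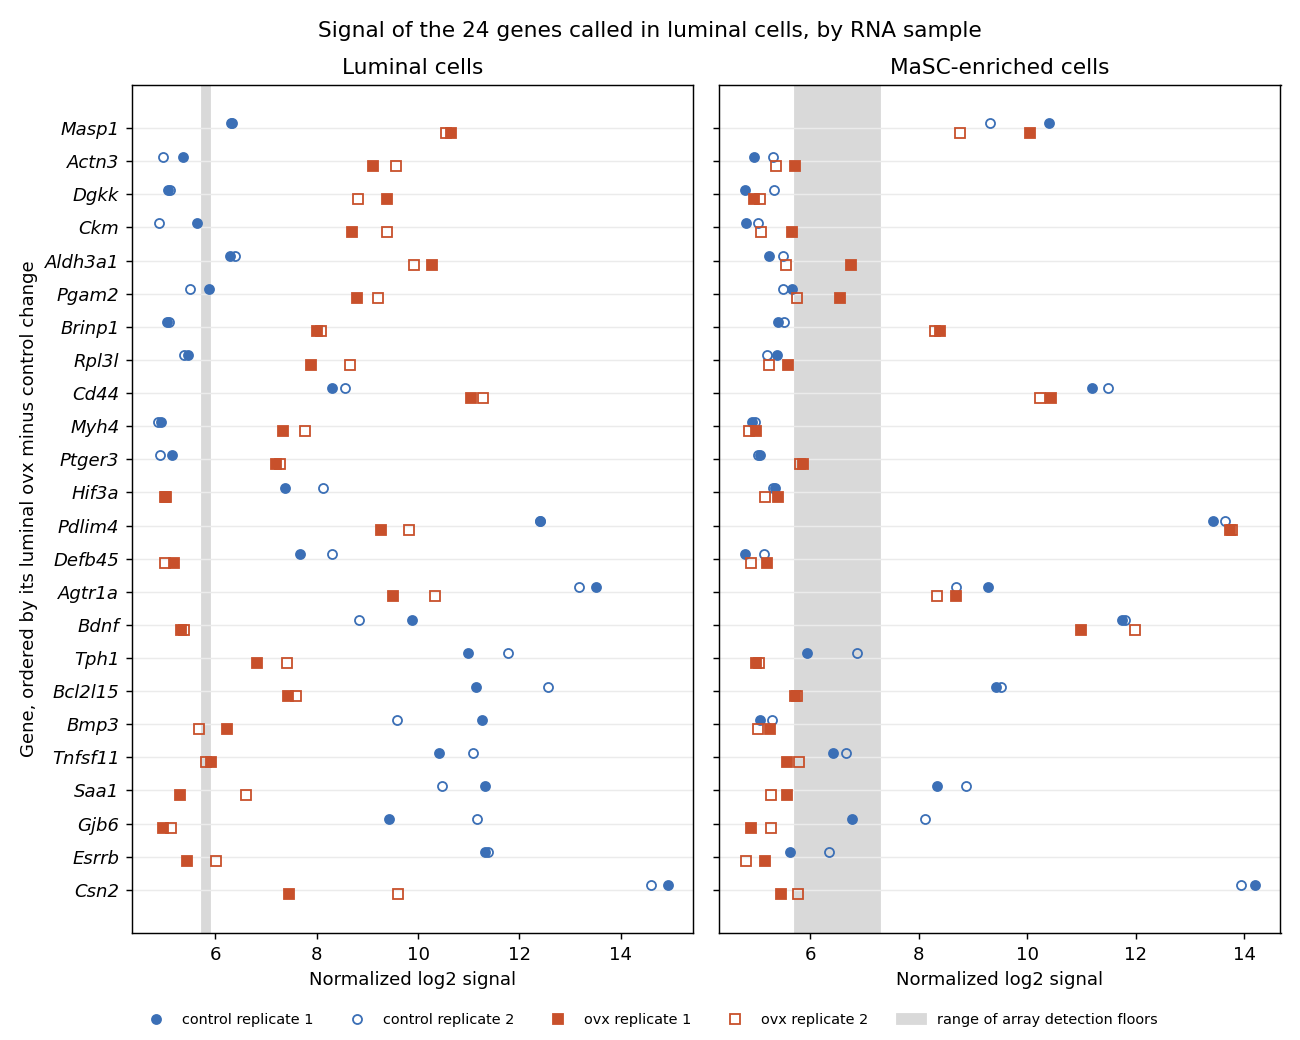
Normalized log2 signal (horizontal axis) of each of the 24 called genes (rows, by their probe with the smallest p) in the 4 luminal samples (left) and the 4 MaSC-enriched samples (right), with circles for control, squares for ovx, filled symbols for replicate 1 and open ones for replicate 2. The grey band spans the lowest detected signals of the arrays, and several genes lie in or below it in one of the luminal groups, such as Gjb6 in ovx and Myh4 in control cells. In the MaSC-enriched panel its upper edge, 7.29, comes from the array of control replicate 1.

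Milk protein genes held the call with the largest change of a named gene. Csn2, beta-casein, measured 14.93 and 14.59 in control and 7.45 and 9.60 in ovx luminal cells. The ovx samples differed from each other by over 2 log2 units, yet both lay far below the controls, and all 3 ovx arrays still detected the transcript. Csn2 fell by 6.24 (SE 0.641, adjusted p = 0.0373), or 75.4-fold by the fitted means. In MaSC-enriched cells, where 0.0762% of probes were called, it measured 14.20 and 13.95 in control and 5.46 and 5.78 in ovx samples. Csn2 was called lower there as well (adjusted p = 0.0113), but only 1 of 3 ovx MaSC-enriched arrays detected it, so the size of that change, and of its difference from the luminal change, is not resolved.

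The whey acidic protein gene Wap measured 9.95 and 11.97 in control and 6.68 and 6.49 in ovx cells (−4.37, adjusted p = 0.0639), and so missed the threshold with groups that did not overlap. Glycam1, a milk mucin, measured 8.59 and 13.22 in control cells and was not detected on any ovx array (at least 34.7-fold, adjusted p = 0.419). Its high value was that of control replicate 2. Cel, the bile salt-stimulated milk lipase, stood at −2.36 and the alpha-casein gene Csn1s1 at −1.44 (adjusted p = 0.42 and 0.454). Csn3, kappa-casein, measured 14.75 and 14.94 in control and 14.70 and 14.83 in ovx cells. These values lie near the top of the measured range, where Krt8 reached 15.05, and a dimmer Csn3 probe stood at −0.65 (adjusted p = 0.941). The control values of Csn2 and of Csn1s1 (14.84 and 14.76) lay in that range too, so the sizes of their falls may not be fully resolved. Lalba, alpha-lactalbumin, measured 9.91 and 7.71 in control cells, with a change of 0.25, and its groups overlapped. Of 21 tested milk protein and secretory genes, 1 was called lower and none higher, and the median was −0.96. In 12 of them both ovx samples lay below both controls and in 1 above, against 24.2% below and 27.7% above over all genes. The median was −0.91 within beadchip 1 and −0.92 within beadchip 2, between −0.98 and −0.55 with single luminal samples left out, and −0.59 with no background correction.

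Of the 24 called genes, 19 matched a RefSeq promoter on mouse build GRCm38.p6, and the 250 bases before each start were searched on both strands. The letters TTCNNNGAA, a motif that Stat proteins bind and that reads the same on both strands, stood in 3 of the 19 windows, those of Bdnf, Csn2 and Esrrb, and in 7.18% of the 27025 windows in the table. All 3 genes were called lower, as were 11 of the 19 genes with a window. AGAACA, a core of the sites that the progesterone and glucocorticoid receptors bind, stood in 4 of 19 (Bdnf, Myh4, Pgam2 and Rpl3l) and in 16.2% of all windows. Of these 4 genes, Bdnf was called lower and the rest higher. The palindromic oestrogen response element stood in none of the 19 and in 0.0629% of all, and the searched motifs did not overlap one another. A match of letters is a description of the window and shows no binding. The windows of the 3 lower genes on which the hormone and milk results turn are shown here, 5′ to 3′ on the strand of the gene, with a Stat motif in capitals. In the Csn2 window (minus strand) it lies 93 to 85 bases before the start, in that of Esrrb (plus strand) 178 to 170 bases before it, and the Tnfsf11 window (minus strand) holds none of the 3 motifs.
Csn2, chr5:87699426-87699675: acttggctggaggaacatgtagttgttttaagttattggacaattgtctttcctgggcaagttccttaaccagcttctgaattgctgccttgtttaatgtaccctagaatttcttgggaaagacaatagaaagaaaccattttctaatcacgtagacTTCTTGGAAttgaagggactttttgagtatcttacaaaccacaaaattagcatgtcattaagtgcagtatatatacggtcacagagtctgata
Esrrb, chr12:86360867-86361116: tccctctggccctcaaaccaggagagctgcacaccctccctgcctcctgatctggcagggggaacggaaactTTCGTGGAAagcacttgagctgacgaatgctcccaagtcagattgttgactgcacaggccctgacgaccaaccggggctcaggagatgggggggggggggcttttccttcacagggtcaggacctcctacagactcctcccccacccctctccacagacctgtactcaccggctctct
Tnfsf11, chr14:78308044-78308293: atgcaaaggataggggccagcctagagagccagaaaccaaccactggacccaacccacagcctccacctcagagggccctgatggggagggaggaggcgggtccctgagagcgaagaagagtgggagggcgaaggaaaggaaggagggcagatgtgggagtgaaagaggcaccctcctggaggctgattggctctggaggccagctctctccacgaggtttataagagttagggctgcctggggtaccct

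Prolactin and Stat5 signalling genes, which act on milk genes, had no call among 15 tested (median 0.13, with 5 above and 3 below the controls in both ovx samples). Socs2, a feedback inhibitor that Stat5 induces, measured 11.88 and 12.29 in control and 8.85 and 10.01 in ovx cells (−2.66, adjusted p = 0.112). Stat5a stood at −1.05 (adjusted p = 0.572), with both ovx samples lower. Cav1, caveolin-1, which restrains Jak2 in the mouse mammary gland, stood at 1.45 (adjusted p = 0.222), and Ghr, the growth hormone receptor gene, at 0.72. Elf5, the transcription factor of alveolar progenitors, measured 12.91 and 13.22 in control and 12.50 and 12.51 in ovx cells (−0.56, adjusted p = 0.913).

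Luminal progenitor and alveolar markers (20 tested, none called, median −0.22) were mixed, with 4 genes above and 7 below the controls in both ovx samples. Gpx3, a secreted glutathione peroxidase, measured 14.90 and 13.56 in control and 10.04 and 11.19 in ovx cells (−3.61, adjusted p = 0.159). Slpi, a secreted protease inhibitor, stood at −3.08 (adjusted p = 0.184). Rspo1, an R-spondin that strengthens Wnt signals, measured 7.20 and 9.51 in control and was not detected on any ovx array (at least 5.93-fold, adjusted p = 0.245). Tspan8, a tetraspanin, measured 10.69 and 9.87 in control and 12.50 and 12.56 in ovx cells (2.25, adjusted p = 0.142). The progenitor markers Kit (0.12) and Aldh1a3 (1.06) did not pass. Without control replicate 2 the median was 0.03, and without ovx replicate 1 it was 0.08. General luminal markers had a median of 0.15 (22 tested, none called, 6 above and 3 below).

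Fatty acid and milk fat synthesis genes had no call among 21 tested, a median of −0.56, and 13 genes with both ovx samples below the controls and none above. Fabp3, a fatty acid carrier of the secretory gland, measured 9.15 and 11.34 in control and 5.64 and 5.61 in ovx cells (−4.62, adjusted p = 0.0758). Thrsp (Spot 14), which promotes lipogenesis, measured 8.27 and 9.74 in control and was not detected on any ovx array (at least 9.30-fold, adjusted p = 0.132). Gpat4 (−1.07) and Gpam (−0.91), acyltransferases of glycerolipid synthesis, had adjusted p = 0.47 and 0.657. Both ovx samples were below both controls for each of the 4 genes. The median stayed between −0.75 and −0.42 with single luminal samples left out.

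Single members of several secreted-factor and receptor families were called lower. The lists of families here and below were chosen with earlier results of these data known, so a lone call in a list does not measure its specificity. Tph1, tryptophan hydroxylase, the enzyme that limits serotonin synthesis outside the brain, measured 10.99 and 11.78 in control and 6.83 and 7.41 in ovx cells. Its groups were well apart, and it fell by 4.27 (SE 0.445, adjusted p = 0.0373). Only 3 serotonin and catecholamine genes were tested, and Maob, a monoamine oxidase, stood at 1.58 (adjusted p = 0.448). Agtr1a, the angiotensin II receptor gene, measured 13.51 and 13.18 in control and 9.50 and 10.33 in ovx cells, and fell by 3.43 (SE 0.399, adjusted p = 0.0456). Ptger3, a receptor for prostaglandin E2, was detected on no control and on all 3 ovx arrays (5.14 and 4.90 against 7.20 and 7.27). It was at least 2.77-fold higher (adjusted p = 0.0485). The 13 renin-angiotensin and prostaglandin genes thus had 1 call in each direction and a median of 0.04 (−0.36 without control replicate 1), with Slco2a1, a prostaglandin carrier, at 2.21 (adjusted p = 0.287).

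Bmp3, a member of the BMP family that antagonises other BMPs, measured 11.25 and 9.57 in control and 6.22 and 5.68 in ovx cells, where 2 of 3 arrays detected it. It fell by 4.46 (SE 0.542, adjusted p = 0.0482). The 25 BMP, TGF-beta and Id genes had that 1 call, and 13 lay above and 5 below the controls in both ovx samples (median 0.47). Inhba, the activin subunit beta A gene, measured 8.22 and 6.99 in control cells and 10.75 ± 0.361 (SD, n = 2) in ovx cells, which lay above both (3.14, adjusted p = 0.237). Id1 (1.96) and Id3 (1.67), targets of BMP signals, had adjusted p = 0.348 and 0.411, with both ovx samples higher for each. Bdnf, a neurotrophin, measured 9.88 and 8.82 in control and was not detected on any ovx array. By the brightest probe Bdnf fell, by at least 11.9-fold (adjusted p = 0.0456), and 3 further kept probes stood between −0.94 and −0.15 and did not pass. The probe at −0.94 was detected on all 3 control arrays and on no ovx array. Those at −0.47 and −0.15 were detected on no luminal array, so they cannot show a fall. The other 9 neurotrophins and receptors held no call, and the median of all 10 was 0.06 (−0.08 without control replicate 1).

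Gjb6, connexin 30, a gap junction protein of the secretory epithelium, measured 9.42 and 11.17 in control cells and was not detected on any ovx array (at least 22.7-fold lower, adjusted p = 0.0482). Gjb2, connexin 26, its neighbour in the family, measured 11.46 and 12.89 in control and 8.85 and 9.23 in ovx cells (−3.13, adjusted p = 0.0996), and its other kept probes stood at −2.93 and −2.39. Gja1, connexin 43, had overlapping groups (−0.72), and the 9 connexins had a median of 0.24. Bcl2l15, a member of the BCL2 family, measured 11.15 and 12.56 in control and 7.44 and 7.60 in ovx cells and fell by 4.34 (SE 0.459, adjusted p = 0.0378). In MaSC-enriched cells, where 1 of 3 ovx arrays detected it, it stood at −3.74 (adjusted p = 0.0558). It was the 1 call among 18 BCL2 family genes, whose median was 0.16 (−0.11 without control replicate 1).

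The list of acute phase and secreted defence genes, with 23 tested, held 1 call in each direction. Saa1, a serum amyloid A protein, measured 11.31 and 10.47 in control and 5.30 and 6.60 in ovx cells, with 1 of 3 ovx arrays above detection. It fell by 4.94 (SE 0.515, adjusted p = 0.0373), while a second probe stood at −0.84 (adjusted p = 0.881). Saa1 has near-identical relatives, so the probes may not read one gene alone. Defb45, a beta-defensin outside that list, was also called, at least 4.56-fold lower (adjusted p = 0.047). Defb1, a list member, measured 12.37 and 10.76 in control and was not detected in ovx cells. It did not pass (at least 54.8-fold lower, adjusted p = 0.0842). Masp1, the protease of the lectin pathway of complement, measured 6.31 and 6.34 in control and 10.65 and 10.55 in ovx cells. The replicates of each group were nearly equal, and Masp1 rose by 4.28 (SE 0.517, adjusted p = 0.0482). Its MaSC-enriched samples lay between 8.76 and 10.40 with overlapping groups. Over the 23 genes of this list the median was −0.40, with 5 above and 10 below the controls in both ovx samples. Without ovx replicate 1 it was −0.15 and without ovx replicate 2 −0.66.

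The remaining genes called lower were Pdlim4 and Hif3a. Pdlim4, an actin-associated LIM domain protein, measured 12.41 in both control samples and 9.26 and 9.83 in ovx cells. It fell by 2.86 (SE 0.311, adjusted p = 0.0378), and its second probe stood at −1.16 (adjusted p = 0.845). MaSC-enriched samples measured between 13.44 and 13.78 for it. By its called probe Hif3a, a subunit of the hypoxia-inducible factor family, measured 7.38 and 8.12 in control cells, was not detected on any ovx array and was at least 3.89-fold lower (adjusted p = 0.0482). Its other kept probe, at 0.31 (adjusted p = 0.902), was detected on 1 of 3 control and 2 of 3 ovx arrays. That probe lay between 5.34 and 5.96, around the detection floor, and the 2 arrays of ovx replicate 1 differed by 0.80. It therefore cannot show whether ovx cells hold the transcript.

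Besides Masp1 and Ptger3, the genes called higher included an aldehyde dehydrogenase, a lipid kinase and a surface receptor. Aldh3a1, which oxidises lipid aldehydes, measured 6.28 and 6.38 in control and 10.27 and 9.92 in ovx cells and rose by 3.77 (SE 0.431, adjusted p = 0.0428). It was the 1 call among 16 aldehyde dehydrogenases, whose median was 0.00. Dgkk, diacylglycerol kinase kappa, was detected on no control array and measured 9.39 and 8.82 in ovx cells. It was at least 10.1-fold higher (adjusted p = 0.019), and its second probe was called too, at least 7.08-fold higher (adjusted p = 0.0349). In MaSC-enriched cells Dgkk stayed between 4.79 and 5.33. Brinp1, a protein known from neurons, measured 5.03 and 5.09 in control and 8.01 and 8.09 in ovx cells, and was at least 4.86-fold higher (adjusted p = 0.0277). It also rose in MaSC-enriched cells, by 2.88 (adjusted p = 0.0226), with 1 of 3 control arrays detecting it, and the difference of the effects was 0.11.

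Cd44, the receptor for hyaluronan, measured 8.30 and 8.56 in control and 11.05 and 11.29 in ovx luminal cells by its called probe. Cd44 rose by 2.74 (SE 0.298, adjusted p = 0.0378) by that probe and stood at 2.22 by its brightest (adjusted p = 0.0658), and all 7 kept probes were positive, between 1.01 and 2.74. In MaSC-enriched cells the called probe measured 11.20 and 11.50 in control and 10.44 and 10.24 in ovx samples, so both ovx samples were lower there. The difference of the effects was 3.75 (SE 0.421) and did not pass (adjusted p = 0.113). Over all probes no difference between the luminal and the MaSC-enriched effect passed in limma, while 952 had an unadjusted p under 0.05, and the lowest adjusted p was 0.0557.

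Skeletal muscle genes made up the rest of the named genes called higher in ovx cells. Ckm, muscle creatine kinase, measured 5.63 and 4.88 in control and 8.70 and 9.38 in ovx cells and rose by 3.79 (SE 0.412, adjusted p = 0.0378). Pgam2, the muscle phosphoglycerate mutase, rose by 3.32 (adjusted p = 0.0412). Of the control arrays 1 of 3 detected each of these 2 genes. No control array detected the called probes of Myh4, a fast myosin, Rpl3l, the muscle form of a ribosomal protein, and Actn3, an alpha-actinin of fast fibres. Myh4 was at least 3.44-fold, Rpl3l at least 5.65-fold and Actn3 at least 11.9-fold higher. The brightest probe of Actn3 stood at 2.24 (adjusted p = 0.118).

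Most other muscle markers were higher in ovx luminal cells without passing the test. Of 21 tested skeletal muscle markers, 4 were called higher by their brightest probe and none lower, 19 had both ovx samples above both controls and 1 both below, and the median was 3.32 (1.91 with no background correction). Averaged over the list, the log2 signal was 7.13 and 6.34 in control and 9.36 and 9.97 in ovx luminal cells, against 7.37 and 6.29 in control and 7.45 and 6.67 in ovx MaSC-enriched cells. On all 3 control arrays 12 of the 21 were detected, and on all 3 ovx arrays 20. Myh4, Rpl3l and Ryr1 were detected on no control array. With the 5 called muscle probes set aside, 28 of the calls remained, 9 higher and 19 lower. The part of muscle RNA in the other luminal differences was not tested.

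**Figure D3:**
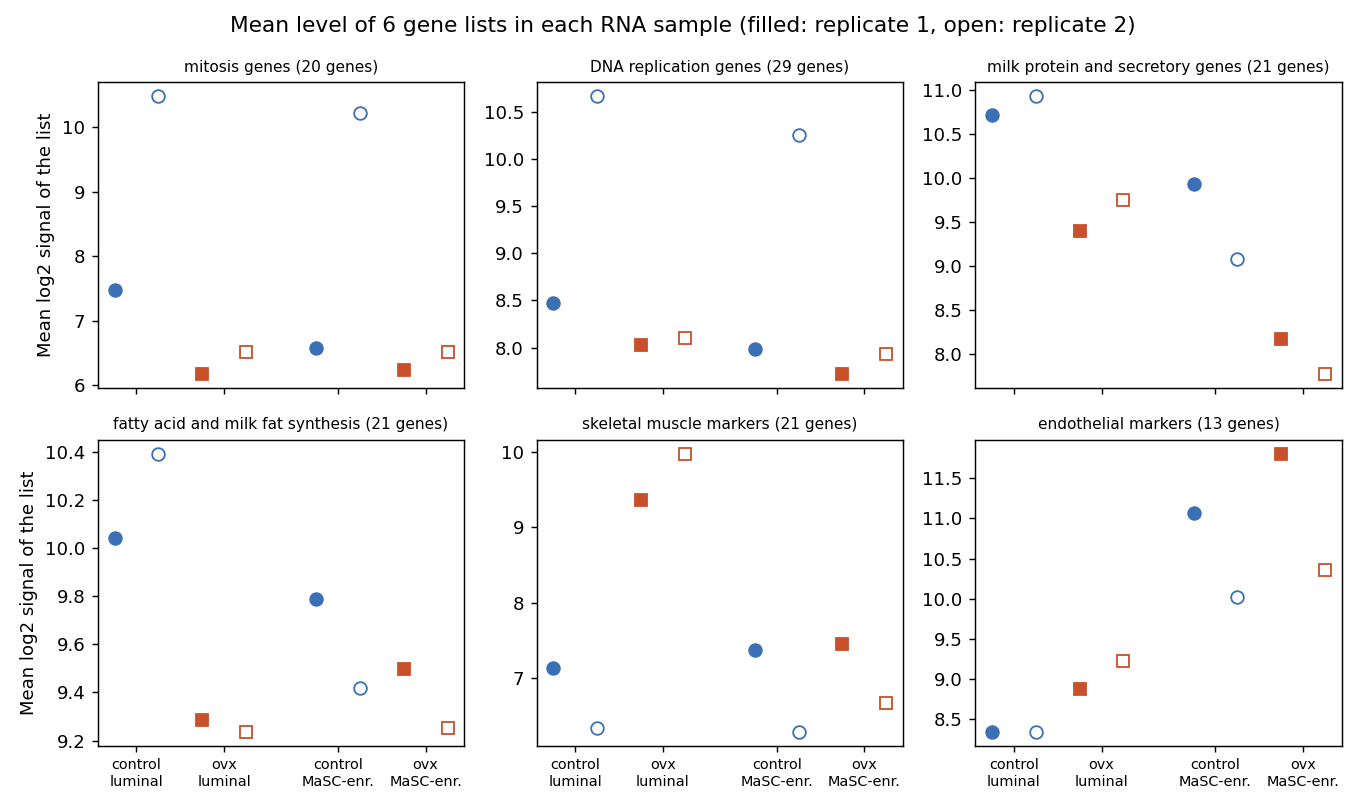
Each panel plots the mean log2 signal (vertical axis) of the tested genes of 1 list in the 8 RNA samples, with circles for control, squares for ovx, filled symbols for replicate 1 and open ones for replicate 2, and with its own axis range. Mitosis and DNA replication genes were high in both fractions of the control replicate 2 pool, muscle markers in both ovx luminal samples, and milk genes in both control luminal samples.

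Markers of other cell types were mixed. Endothelial markers (13 tested, none called, median 0.68) had 12 genes with both ovx samples above the controls and none below, and their mean level was 8.34 and 8.34 in control and 8.88 and 9.22 in ovx cells. All 13 were detected on the ovx arrays. Eng, endoglin, stood at 2.10 (adjusted p = 0.435). Pericyte markers (10 tested, none called) had a median of 0.47, with Des, desmin, which muscle also expresses, at 2.07. Adipocyte markers (7 tested, none called, median 0.22) included Car3 at 2.19 (adjusted p = 0.238), while Adipoq and Lep were detected on no luminal array. The part of these cell types in the luminal differences was not tested.

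Fibroblast markers (15 tested, none called) had a median of −0.85, which was 0.15 without control replicate 2 and 0.19 without ovx replicate 1. Their mean level was 7.58 and 9.13 in control and 6.70 and 8.46 in ovx cells, so replicate 2 was higher in each group. In 1 of the 15 genes both ovx samples lay above both controls and in 1, Dcn (decorin), below. Dcn measured 14.92 and 13.97 in control and 11.50 and 13.02 in ovx cells (−2.19, adjusted p = 0.314). Its 3 other kept probes stood between −3.64 and −2.85. Lum (−1.74), Col5a1 (−1.35) and Pdgfra (0.60) had overlapping groups. Basal and myoepithelial markers (23 tested, none called, median −0.21) had 6 genes above and 7 below the controls in both ovx samples. Krt14, the member with the largest fall, measured 11.75 and 12.90 in control and 9.43 and 10.85 in ovx cells (−2.18, adjusted p = 0.341). Nrg1, detected on no control array, stood at 1.06 with both ovx samples higher (adjusted p = 0.642). The median of this list was 0.05 without ovx replicate 1. Immune markers (10 tested, none called) had a median of −0.06, which ran from −0.43 to 0.46 with single luminal samples left out. Red blood cell markers (5 tested, none called) had a median of 0.29, which ran from −0.48 to 1.30. Alas2, the haem synthesis enzyme of erythroid cells, stood at 1.93 (adjusted p = 0.0658) and was the 1 with both ovx samples higher. Hba-a1, another of the 5, had both ovx samples lower (−1.15, adjusted p = 0.775). Hbb-bs and Hbb-b2 had overlapping groups. The 11 Schwann cell and neuronal markers had a median of 0.07 and 1 call, Brinp1.

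Proliferation genes were lower in ovx cells without a single call, and their level separated the control pools from each other more than the groups. The 20 tested mitosis genes had a median of −2.77 (−1.76 with no background correction), and 17 had both ovx samples below both controls. On all 3 ovx arrays 8 of the 20 were detected, and 6 on none, so the detection floor limits the sizes given. The mean log2 level of the 20 was 7.48 and 10.48 in control and 6.17 and 6.52 in ovx cells. Birc5 (survivin) measured 8.13 and 11.50 in control and 5.51 and 6.59 in ovx cells (−3.76, adjusted p = 0.595), where 1 of 3 arrays detected it. Prc1, a spindle midzone protein, measured 9.52 and 12.79 against 7.33 and 8.55 (−3.21, adjusted p = 0.672). In all 20 genes control replicate 2 lay above control replicate 1. Replicate 1 in turn lay above both ovx samples in 17 of them, with a median difference from the ovx mean of 1.27. Without control replicate 2 the median of the list was −1.27, and without control replicate 1 it was −4.22. The 29 DNA replication genes had a median of −1.48, with 20 below and none above the controls in both ovx samples, and −0.31 without control replicate 2. Uhrf1, which keeps DNA methylation through replication, measured 10.23 and 13.08 in control and 7.81 and 8.11 in ovx cells (−3.69, adjusted p = 0.439). Mki67 could not be matched to a probe by symbol and was not tested.

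**Figure D4:**
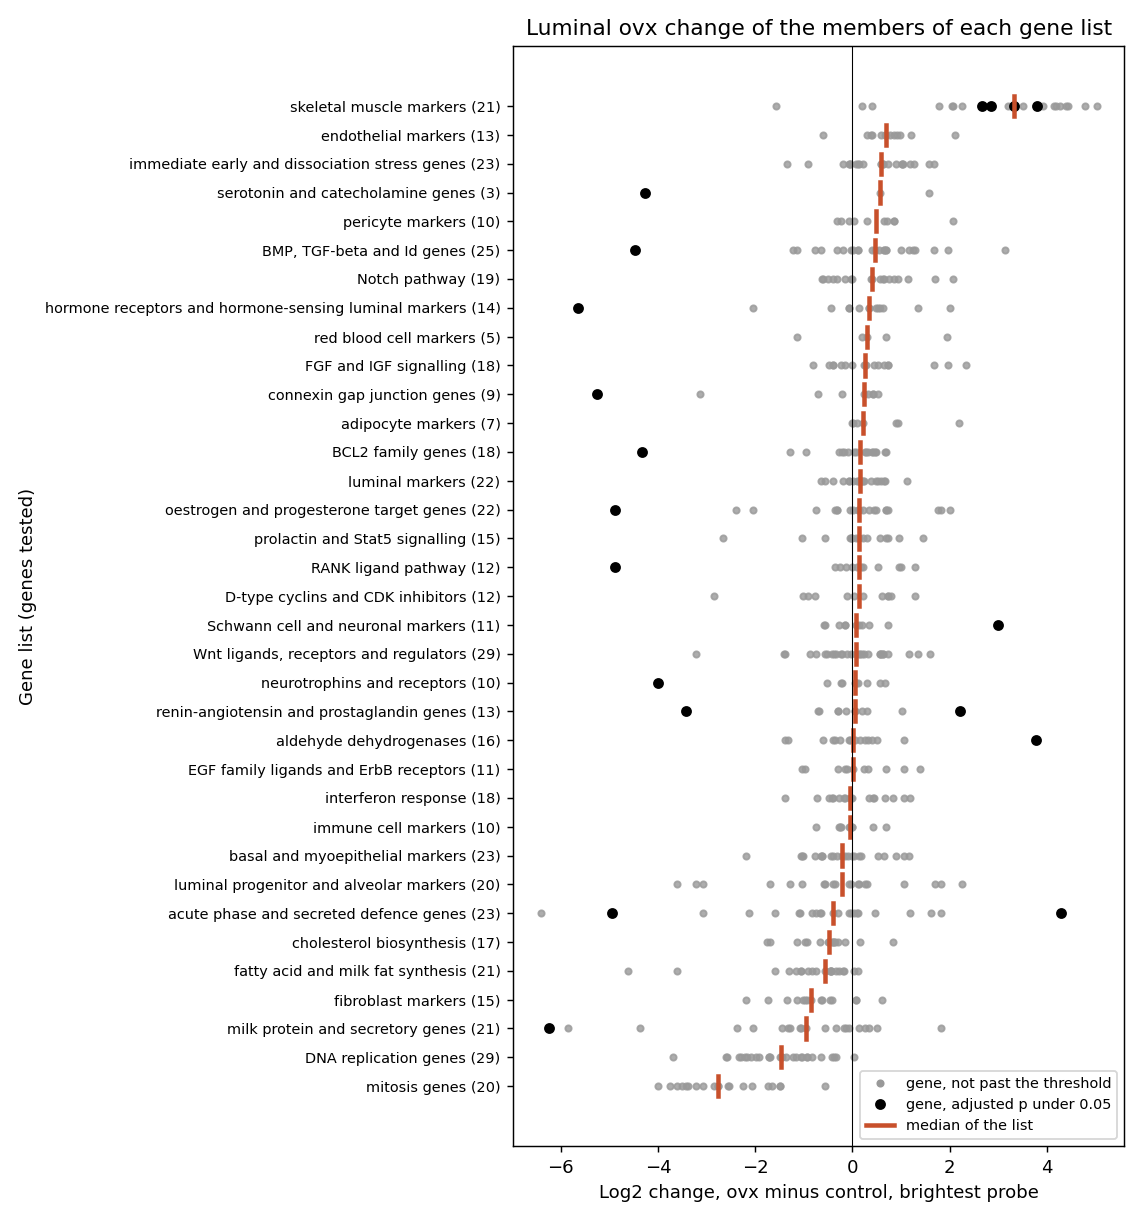
Log2 change in luminal cells, ovx minus control (horizontal axis), of every tested member of the 35 gene lists (rows, with the number tested), by the brightest probe of each gene. Black points are called genes and the orange bars are medians, which run from −2.77 for mitosis genes to 3.32 for skeletal muscle markers.

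Genes just short of the threshold, with groups that did not overlap and a change of at least 1, were taken as the 10 with the smallest p in each direction. Higher in ovx were Scara3 (3.25), a scavenger receptor family member, Sytl2 (4.02), an effector of vesicle transport, the annexin Anxa8 (2.93), the fatty acid receptor Ffar4 (2.54), Plxdc1 (2.60), Tm4sf1 (3.13), the cysteine protease inhibitor Cst3 (2.15), Hs3st3a1 (2.30), and the muscle genes Xirp2 (2.69) and Pvalb (4.79). Their adjusted p lay between 0.0569 and 0.0658. Lower were S100a8 (−4.36), a calcium-binding protein of granulocytes and inflamed epithelia, Sult5a1 (−2.13), Fam20a (−4.28), Wap, Tenm4 (−3.78), Emid1 (−2.60), Aoc1 (−3.08), a diamine oxidase, Fabp3, Csprs (−2.14) and the cytochrome P450 gene Cyp1b1 (−3.50). Their adjusted p lay between 0.0602 and 0.0774, and none of the 20 is a call.

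The 2 largest changes of all called probes belonged to probes that no table used here pairs with a gene. Probe ILMN_2744927 measured 14.27 and 14.95 in control and 4.91 and 6.45 in ovx luminal cells and fell by 8.93 (SE 0.684, adjusted p = 0.0147). It was called lower in MaSC-enriched cells too, where no ovx array detected it (at least 60.0-fold, adjusted p = 0.0291). Probe ILMN_3101815 measured 11.63 and 14.36 in control and was not detected in ovx cells (at least 147-fold lower, adjusted p = 0.0412). The other 6 such probes were 4 lower and 2 higher.

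Each of the 24 called genes kept its direction within beadchip 1, which holds 1 sample of each luminal group, and within beadchip 2, which holds 2, a direction that choosing the genes on these samples largely fixes. Their adjusted p depended on single samples. No probe passed without ovx replicate 1 in limma (644 at an unadjusted p under 0.05), and 1, a probe of the 33, without ovx replicate 2. Without control replicate 2, 4 probes passed and none was among the 33, and without control replicate 1, 13 passed and 6 were among them. With the 4 luminal samples alone, 3 passed.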

How the data were processed

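Per the file headers, the deposited non-normalized table lists each probe's intensity on each array with its detection p-value. The deposited series table holds the authors' normalized values, which fit a log2 scale. Its method is not given in the sources used here, and it served as an alternative. Per the submitters' processing notes, BeadStudio and limma were used, with no version or role.

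The intensities of all 12 arrays were processed with limma 3.58.1 (R 4.3.3): neqc with background inferred from the detection p-values, an offset of 16, quantile normalization and log2. Technical arrays were averaged per RNA. The filter asked for a mean detection p under 0.05 in at least 2 of 8 samples and left 20995 probes (46.4%). Symbols came from the platform annotation: 34885 probes had 1, 18 several and 10378 none. A model with 4 group means was fitted to all 8 samples, with moderated two-sided tests and Benjamini-Hochberg adjustment over all kept probes. The fit was tested on simulated data. For each gene the brightest kept probe was used in lists, and a called probe where so stated. "At least" folds raise signals below an array's lowest detected signal to it, where no array of the lower group detected the probe.

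Named genes were those called, the 10 nearest the threshold per direction with a change of at least 1, up to 4 members of smallest p in each of 35 gene lists, and marker genes. The comparison, lists and tests were chosen with earlier results of these data known. Lists are described by counts and medians without a test. P-values rest on the spread between the 2 samples of each group, over both fractions. Each pool gave a luminal and a MaSC-enriched sample, and the main fit treated these as independent, also for the difference of effects. Deviations of the fractions of a pool correlated at 0.367 in control and 0.135 in ovx pools. Control and ovx samples share replicate numbers but no pool, so they were not paired, and the deviations of same-numbered luminal samples correlated at 0.279.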

Additional observations from a re-analysis of the deposited data

How the results depend on the processing

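The number of calls, 33, moved with the processing. It was 28 with an offset of 50, with no background correction, with the deposited table and with the pool as a random block, 26 without the filter on dim probes (18 higher, 8 lower), 31 with the first array of each RNA and 39 with a filter on the luminal samples. It was 3 with only the luminal samples, 0 within beadchip 1 (373 at an unadjusted p under 0.05) and 1 within beadchip 2, 137 with the beadchip as a block (80 higher, 57 lower) and 56 with a robust prior and an intensity trend (29 higher, 27 lower). Lower calls made up 57.6% of the 33, but 41.6% with the beadchip block, 30.8% without the filter and 14 of 28 with an offset of 50. With single samples left out the count ranged from 0 to 82, being 82 without either control MaSC-enriched sample and 0 without either ovx MaSC-enriched sample. With the replicate number as a block, 52 passed (24 higher, 28 lower), all 33 among them. The numbers mark no shared pool, and no pairing follows from this. A fit that set aside the control pool of replicate 2 in both fractions, added after seeing the data, also called 33, 3 higher and 30 lower, and 13 were the same probes.

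Over 24 called genes and 22 alternatives, 252 values kept their call, 276 lost it and none turned its sign, which choosing the genes on these samples largely fixes. Esrrb kept its call in 16 of 22 and ranged from −6.09 to −4.00, Tnfsf11 in 14 (−5.23 to −3.37), and Csn2 in 12 (−7.63 to −5.16). Rpl3l kept its call in 5 and Hif3a in 6. The difference between the luminal and MaSC-enriched effects was refitted with the pool as a fixed block and without each of the 8 samples, and no probe passed in these 9 limma fits, where between 492 and 3239 had an unadjusted p under 0.05. With the pool as a fixed block it was 1229, and the lowest adjusted p was 0.299. With no background correction the muscle median was 1.91 in place of 3.32, the milk median −0.59 in place of −0.96 and the change of Actn3 2.44 in place of 4.17. Some of the 22 alternatives repeat one another, so the tallies of kept calls count them more than once. The deposited table and the offset of 50 gave nearly equal changes, such as −4.9259 and −4.9265 for Esrrb. Leaving out either control MaSC-enriched sample gave the same luminal fit, and so did leaving out either ovx one.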

Other observations

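Other signalling families held no call in luminal cells. Of 19 Notch pathway genes, 10 had both ovx samples above both controls and 4 below (median 0.41), against 27.7% and 24.2% of all genes. Hey2, a Notch target, was not detected on any control array and measured 7.21 and 7.49 in ovx cells (at least 2.99-fold, adjusted p = 0.093), with a second probe at 1.64 (adjusted p = 0.0937). Hey1 stood at 1.70 and the ligand gene Jag1 at 1.13 (adjusted p = 0.702 and 0.719). Of 18 FGF and IGF genes (median 0.26), the receptor genes Fgfr3 (2.33, adjusted p = 0.119) and Fgfr1 (1.68, adjusted p = 0.358) and the ligand gene Fgf1 (1.97, adjusted p = 0.555) had both ovx samples higher. The 29 Wnt genes had a median of 0.07, with Wnt7b at 1.59 and Wif1, a secreted Wnt inhibitor, at −0.87. The 11 EGF family genes had a median of 0.00, with the ligand gene Hbegf at 1.39 (adjusted p = 0.288), which measured 10.33 and 10.87 in control and 11.74 and 12.24 in ovx cells.

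Among cell cycle regulators, Cdkn1a, the p21 inhibitor gene, measured 12.34 and 12.10 in control and 13.37 and 13.62 in ovx cells (1.28, adjusted p = 0.419), and E2f1 stood at −2.84 (adjusted p = 0.69). The 12 D-type cyclins and CDK inhibitors had a median of 0.12. Cholesterol biosynthesis genes (17 tested) had a median of −0.48, with 8 below and none above the controls in both ovx samples. Interferon response genes (18 tested) had a median of −0.05. Immediate early and dissociation stress genes (23 tested) had a median of 0.59 and 10 above, among them Jun at 1.57 and Klf2 at 1.67, and 0.16 without control replicate 2. Egr3 stood at −1.35 (adjusted p = 0.47).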
